A study of Mus musculus with 20 samples.

Results

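The 7 genes described here mark or set the CD4, CD8 and gamma-delta T cell lineages and were followed through 20 mRNA libraries of mouse T cells. They were chosen by symbol from the annotation, with results of these libraries known: the co-receptor genes Cd4, Cd8a and Cd8b1, the lineage factor genes Zbtb7b and Runx3, and the receptor constant genes Tcrg-C4 and Trdc. Of these 7 genes, 6 had a row among the 39179 gene IDs of each count table. Trdc was not analysed here. The colon difference between genotypes was among the results that chose the genes, so member values in that comparison, and in colon cells of either genotype against their precursors, are given as a description with no test.

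The cells were C57BL/6 CD4 T cells with an IL-17F reporter that puts Thy1.1 on the surface, a marker of Th17 cells. In the transfer part, Il6ra-/- Il17f/Thy1.1 cells (CD45.2), which lack the receptor for IL-6, and wild-type Il17f/Thy1.1 cells (CD45.1) were cultured for 6 days with irradiated splenic antigen-presenting cells and antibodies to CD3, IFN-g and IL-4. The medium held TGF-b (2.5 ng/ml) with hyper-IL-6 (20 ng/ml). Hyper-IL-6 joins IL-6 to the soluble form of its receptor, so that cells without their own receptor can respond. Thy1.1+ precursors of both genotypes were sequenced (2 libraries each), and others were placed together into Rag1-/- recipients, mice that cannot make lymphocytes. After 4 weeks live CD4+TCRb+ cells were sorted from the colon by CD45 allele (3 pooled libraries per genotype), without a gate on Thy1.1, so a colon library holds what the transferred cells had become. In the culture part, IL6Ra-/- IL-17F/Thy1.1 Hz cells were grown for 6 days with TGF-b and hyper-IL-6 (63 ng/ml), and IL-17F/Thy1.1 Hz cells, wild type for the receptor, with the same or with TGF-b and IL-6 (20 ng/ml). Naive CD4 T cells of each genotype were the starting population (2 libraries in each of the 5 groups). Cells of this part were stimulated with PMA and ionomycin for 4 h before sorting, by the protocol text of its 10 libraries. Ages are not in the labels, and nothing in them says that the 2 libraries of a culture group came from separate mice, so p-values measure the spread between libraries, which may be technical.

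CD4 and CD8 are the co-receptors that bind MHC class II and class I beside the T cell receptor. Cd4 encodes a single chain; CD8 is an alpha-beta pair of the Cd8a and Cd8b1 products or an alpha-alpha pair, the form found on many intraepithelial lymphocytes of the gut. ThPOK, the product of Zbtb7b, sets the CD4 helper fate and represses Runx3, and Runx3 sets the CD8 fate and silences Cd4 and Zbtb7b in the thymus; in the gut, CD4 cells that lose ThPOK and gain Runx3 can take on Cd8a and cytotoxic genes. Tcrg-C4 is 1 of the constant genes of the gamma chain, and Trdc is the constant gene of the delta chain, which together with the gamma chain makes the receptor of gamma-delta T cells. Gamma chain transcripts can also occur in alpha-beta T cells.

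On build GRCm38, Cd8b1 (chr6:71322788-71337494) and Cd8a (chr6:71373427-71379173) lie side by side on the plus strand, and Cd4 (chr6:124864692-124888221) lies on the minus strand of the same chromosome. Zbtb7b is at chr3:89377644-89394776 on the minus strand, Runx3 at chr4:135120652-135177990 on the plus strand and Tcrg-C4 at chr13:19344558-19352756 on the plus strand. Promoter windows of 300 bases, with 250 before and 50 after the annotated start, were available from RefSeq (GRCm38.p6) for 3 members: 2 each for Runx3 and Zbtb7b and 1 for Cd8a. They were searched for 1 form of the RUNX core, TGTGGT, and, on the other strand, ACCACA. Other forms of the core were not searched. The distal Runx3 window held 2 matches and the downstream Zbtb7b window 1. The Cd8a window and the other windows of Runx3 and Zbtb7b held no match to these letters, and may hold another form. At least 1 match was present in 16.8% of the 32851 windows of the same length, and at least 2 in 1.78%. A match describes letters only, not binding. Printed 5′ to 3′ on the gene's strand with matches in capitals, these windows show the genes of the opposed lineage factors beside Cd8a, whose colon values are described first.
Runx3 distal start, chr4:135120395-135120694, plus strand: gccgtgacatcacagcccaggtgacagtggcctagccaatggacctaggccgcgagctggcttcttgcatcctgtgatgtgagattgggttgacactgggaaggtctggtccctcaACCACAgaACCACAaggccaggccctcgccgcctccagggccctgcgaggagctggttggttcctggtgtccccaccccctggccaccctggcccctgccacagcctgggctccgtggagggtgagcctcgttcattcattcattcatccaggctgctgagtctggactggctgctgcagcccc
Zbtb7b downstream start, chr3:89387622-89387921, minus strand: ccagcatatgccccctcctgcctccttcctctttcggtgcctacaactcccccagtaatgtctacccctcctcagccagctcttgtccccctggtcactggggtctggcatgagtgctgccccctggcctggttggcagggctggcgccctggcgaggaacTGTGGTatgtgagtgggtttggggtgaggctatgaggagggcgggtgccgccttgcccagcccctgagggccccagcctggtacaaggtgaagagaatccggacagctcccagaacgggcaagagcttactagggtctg
Cd8a start, chr6:71373177-71373476, plus strand: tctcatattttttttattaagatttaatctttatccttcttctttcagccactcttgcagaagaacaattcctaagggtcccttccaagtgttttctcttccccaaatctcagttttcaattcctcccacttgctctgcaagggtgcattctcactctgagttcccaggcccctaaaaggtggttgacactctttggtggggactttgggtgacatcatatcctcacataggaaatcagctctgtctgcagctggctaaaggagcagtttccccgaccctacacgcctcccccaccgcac

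Gene counts per library ranged from 12718633 to 23745060 for transfer libraries and from 20160774 to 46848016 for culture libraries. Levels are CPM, counts relative to the TMM-scaled library total, and are not compared between the parts. Il6ra itself does not check the labels, since transcripts of the locus were counted in deficient cells. It had 80.5 and 123 CPM in Il6ra-/- and 72.8 and 84.2 CPM in wild-type precursors. In the colon it ranged from 2.53 to 4.85 CPM in Il6ra-/- and from 4.31 to 10.7 CPM in wild-type libraries. In hyper-IL-6 cultures it had 31.7 and 32.3 CPM in deficient and 39.1 and 39.7 CPM in wild-type cells, and in naive cells 199 and 213 CPM in deficient and 270.2 and 421 CPM in wild-type ones. The labelled T cell identity was matched by Cd3e, which ranged from 464 to 530.5 CPM in Il6ra-/- and from 453 to 636 CPM in wild-type colon libraries.

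**Figure D1:**
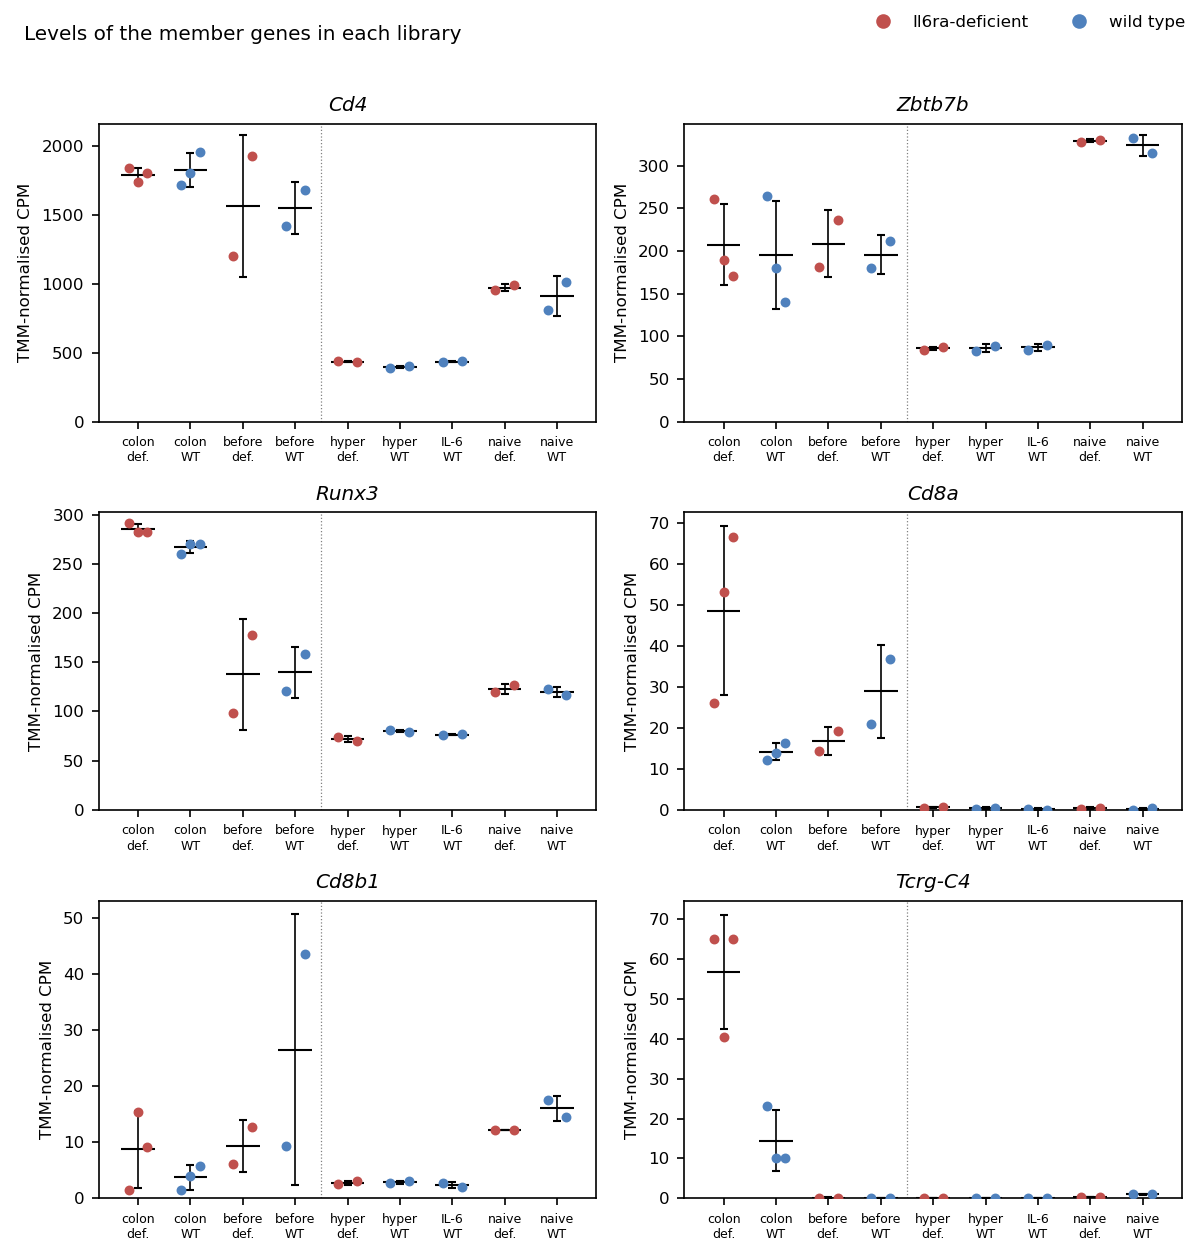
TMM-normalised CPM of 6 member genes in each library (points), with group means (bars) and SD (whiskers); "def." is Il6ra-deficient, "hyper" and "IL-6" are cultures, and the dotted line separates the transfer part from the culture part. Cd8a lies between 26.2 and 66.7 CPM in deficient colon libraries and between 12.3 and 16.4 in wild-type ones, and Tcrg-C4 is at most 1.10 CPM outside the colon.

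Cd4 was the most abundant member per exon length in each of the 9 groups. In the colon it reached 445 ± 12.3 CPM per kb in Il6ra-/- and 453 ± 30.5 CPM per kb in wild-type cells (SD, n = 3 each). In deficient colon cells the other members followed in the order Tcrg-C4 (57.8 ± 14.5 CPM per kb), Runx3 (57.0 ± 1.02), Zbtb7b (37.1 ± 8.48), Cd8a (13.4 ± 5.67) and Cd8b1 (5.87 ± 4.67). The levels of Tcrg-C4 and Runx3 lay within each other's spread. Cd8a was above Cd8b1 in each of the 3 libraries. In wild-type colon cells the order was Runx3 (53.4 ± 1.21 CPM per kb), Zbtb7b (34.9 ± 11.3), Tcrg-C4 (14.7 ± 7.70), Cd8a (3.91 ± 0.567) and Cd8b1 (2.52 ± 1.47). Here too Cd8a was above Cd8b1 in each of the 3 libraries.

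Among colon cells, Cd8a and Tcrg-C4 were the members with the widest gap between genotypes. Cd8a, the alpha chain of CD8, had 26.2, 53.2 and 66.7 CPM in the 3 Il6ra-/- libraries and 12.3, 13.9 and 16.4 CPM in the 3 wild-type libraries. All deficient libraries lay above all wild-type ones, and the log2 fold change was 1.78 ± 0.34 (SE). Tcrg-C4 had 65.1, 40.4 and 65.1 CPM in Il6ra-/- and 23.3, 10.1 and 10.2 CPM in wild-type colon libraries, again without overlap, with a log2 fold change of 1.98 ± 0.39 (SE). Cd8b1, the beta chain, had 1.56, 15.4 and 9.17 CPM in Il6ra-/- and 1.41, 4.05 and 5.74 CPM in wild-type libraries. These groups overlapped, while within each of the 3 same-numbered pairs the Il6ra-/- library was the higher. In Il6ra-/- library 0 Cd8a had 454 counts and Cd8b1 27.

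The helper-lineage genes were close between the colon genotypes. Cd4 had 1839, 1741 and 1803 CPM in Il6ra-/- and 1718, 1804 and 1961 CPM in wild-type libraries (log2 fold change -0.03 ± 0.21, SE). Zbtb7b had 261, 189.9 and 171 CPM in Il6ra-/- and 264, 180.3 and 140.3 CPM in wild-type libraries, and in both genotypes library 0, which came from the first experiment, was the highest. Runx3 had 291, 283 and 282 CPM in Il6ra-/- and 260.0, 271 and 270.5 CPM in wild-type libraries; these did not overlap, yet the means differed by a log2 fold change of only 0.10 ± 0.22 (SE). The colon groups did not overlap for 3 of 6 members, and for 15.8% of all 14225 genes tested. At a Benjamini-Hochberg adjusted p under 0.05 in edgeR's quasi-likelihood test, 0.155% of genes passed between the colon genotypes (22 genes, or 39 with the replicate number as a block). Nothing is read from these counts about the members, which were selected on this contrast.

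Markers of other cells were summed beside these values. In bulk libraries fewer cells of a type and less RNA per cell cannot be told apart. The colon cells had been sorted as live CD4+TCRb+, a gate that would leave out NK, dendritic, myeloid, B and epithelial cells. It would also leave out gamma-delta T cells and CD8 T cells that lack CD4. CD8 alpha is also made by some dendritic cells. The 8 markers of that type summed to between 70.2 and 78.9 CPM in Il6ra-/- and between 36.2 and 46.5 CPM in wild-type colon libraries. Its defining genes Xcr1 and Clec9a averaged under 1 CPM in both (Clec9a 0.304 and 0.264 CPM). Of the same list Itgax averaged 34.3 CPM in Il6ra-/- and 15.3 CPM in wild-type libraries, Irf8 24.4 and 14.9 CPM, and Naaa 12.3 and 8.91 CPM, and the other 3 genes were under 1 CPM. The 8 NK cell markers summed to between 30.1 and 34.7 CPM in Il6ra-/- and between 34.6 and 76.4 CPM in wild-type colon libraries, with Ncr1 at 0.243 and 0.131 CPM. The 9 myeloid markers summed to between 92.2 and 319.8 CPM in Il6ra-/- and between 129 and 332 CPM in wild-type libraries. The 4 NKT and MAIT cell markers summed to between 202 and 213 CPM in Il6ra-/- and between 180.0 and 218 CPM in wild-type ones. The 6 B cell markers summed to between 36.7 and 83.6 CPM in Il6ra-/- and between 16 and 29.1 CPM in wild-type libraries, mostly Ighm, with Cd79a at 0.205 and 0.26 CPM. The 8 epithelial markers summed to between 108 and 244 CPM in Il6ra-/- and between 140.2 and 509.7 CPM in wild-type colon libraries. The part of these cells in the member values was not tested. Of 36 tested entries of the 6 marker lists, 0 passed between the colon genotypes in edgeR (6 at an unadjusted p under 0.05, 0 in DESeq2).

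Other segments of the gamma chain locus were measured beside Tcrg-C4. Tcrg-C1 had 82.2, 75.9 and 99.4 CPM in Il6ra-/- and 92.5, 99.5 and 139.8 CPM in wild-type colon libraries. Tcrg-C2 had 232, 176 and 207 CPM in Il6ra-/- and 106, 84.7 and 139 CPM in wild-type ones. Tcrg-C2 lay higher in all deficient libraries. Tcrg-C1 overlapped between the genotypes and was lower in the Il6ra-/- library of each of the 3 same-numbered pairs. Neither passed the edgeR test (log2 fold changes 0.90 ± 0.42 and -0.37 ± 0.34, SE, adjusted p = 1 for both). Tcrg-V4, the most abundant variable segment, had 31.4, 28.4 and 40.7 CPM in Il6ra-/- and 40.8, 27.5 and 57.5 CPM in wild-type libraries. Tcrg-V1 had 9.76, 5.84 and 5.20 CPM in Il6ra-/- and 5.27, 1.16 and 0.968 CPM in wild-type ones. The constant genes resemble one another in sequence, so the split of reads among them is uncertain. Other listed gamma-delta genes ranged widely in level in the same libraries. Trdv1, a variable segment of the delta chain, averaged 0.726 CPM in Il6ra-/- and 0.625 CPM in wild-type colon cells, and Sox13, a factor of IL-17-producing gamma-delta cells, 0.233 and 0.87 CPM. Cd163l1, the scavenger receptor SCART1 of such cells, averaged 74.8 ± 17.2 CPM in Il6ra-/- and 80.7 ± 12.3 CPM in wild-type colon cells (SD, n = 3 each). 5830411N06Rik, on the same list, averaged 54.3 CPM in Il6ra-/- and 34.2 CPM in wild-type colon cells. Of 22 listed genes of the gamma-delta programme 17 were tested and 0 passed in edgeR (2 at an unadjusted p under 0.05, 0 in DESeq2); their median log2 fold change was 0.19, against 0.00 over all genes.

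**Figure D2:**
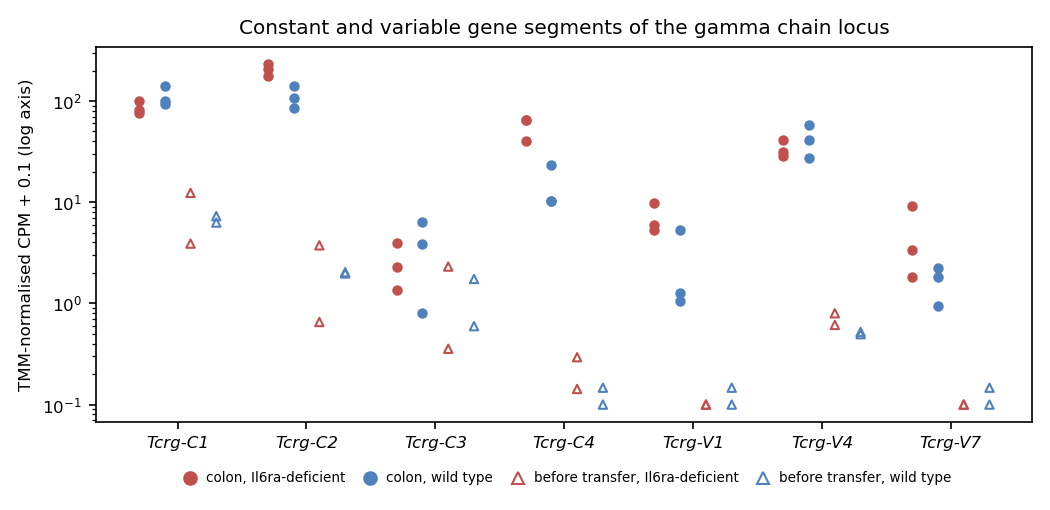
TMM-normalised CPM plus 0.1 (log axis) of 7 gene segments of the gamma chain locus in each transfer library, colon as filled circles and precursors as open triangles. Tcrg-C4 and Tcrg-C2 lie higher in all 3 deficient than in all 3 wild-type colon libraries, Tcrg-C1 and Tcrg-V4 overlap, and Tcrg-C1, Tcrg-C2, Tcrg-C4, Tcrg-V1, Tcrg-V4 and Tcrg-V7 lie below their colon levels in every precursor library.

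Other genes of CD8 T cells and CD4 intraepithelial cells were given by the same test. This list and the other gene lists were chosen with earlier results of these data known, so their tests are not independent support. Of 18 tested CD8 and intraepithelial genes, 2 were higher in Il6ra-/- colon cells and none lower. Klrd1, the CD94 chain of receptors for MHC class I-like ligands, was at 66.6, 55.3 and 85.2 CPM in Il6ra-/- and 17.9, 22.7 and 21.2 CPM in wild-type libraries (log2 fold change 1.74 ± 0.24, SE, edgeR adjusted p = 0.0181). Itga1, the alpha chain of the collagen-binding integrin VLA-1, was at 181, 127 and 156 CPM in Il6ra-/- and 43.6, 49.8 and 57.8 CPM in wild-type libraries (1.62 ± 0.19, SE, edgeR adjusted p = 0.0164). Both calls were lost in each fit that left out 1 colon library, which left 0 genes of the T cell lists past the threshold, and 4 passed in DESeq2. The list's median log2 fold change was 0.91, against 0.00 over all genes. Of 20 regulators of the co-receptor lineages and 10 tested genes of the alpha-beta receptor and CD3, 0 passed in edgeR (1 at an unadjusted p under 0.05, 0 in DESeq2); Trac had 392 ± 16.5 CPM in Il6ra-/- and 441 ± 101 CPM in wild-type colon cells (SD, n = 3 each).

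Before transfer the members were not separated by genotype in the test. Cd8a had 14.3 and 19.3 CPM in Il6ra-/- and 21 and 37 CPM in wild-type precursors, the order opposite to that in the colon (log2 fold change -0.79 ± 0.41, SE, edgeR adjusted p = 0.982). Cd8b1 had 6.09 and 12.6 CPM in Il6ra-/- and 9.39 and 43.5 CPM in wild-type precursors, with 1 wild-type library far above the other 3. Cd4 spanned 1200.5 and 1928 CPM in Il6ra-/- and 1421 and 1683 CPM in wild-type precursors. Runx3 had 98.1 and 178 CPM in Il6ra-/- and 121 and 158 CPM in wild-type ones, and Zbtb7b had 181 and 236 CPM in Il6ra-/- and 179 and 212 CPM in wild-type ones. Tcrg-C4 had 5 and 1 counts in Il6ra-/- and 1 and 0 counts in wild-type precursors, and it passed the filter on low counts only through the colon libraries. Of 6 members 0 passed, at an unadjusted p under 0.05 in edgeR 0, and in DESeq2 0; over all genes 0.00703% passed. In the same precursors 0 of 65 tested genes of the 4 other T cell lists passed in edgeR (2 at an unadjusted p under 0.05, 0 in DESeq2).

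**Figure D3:**
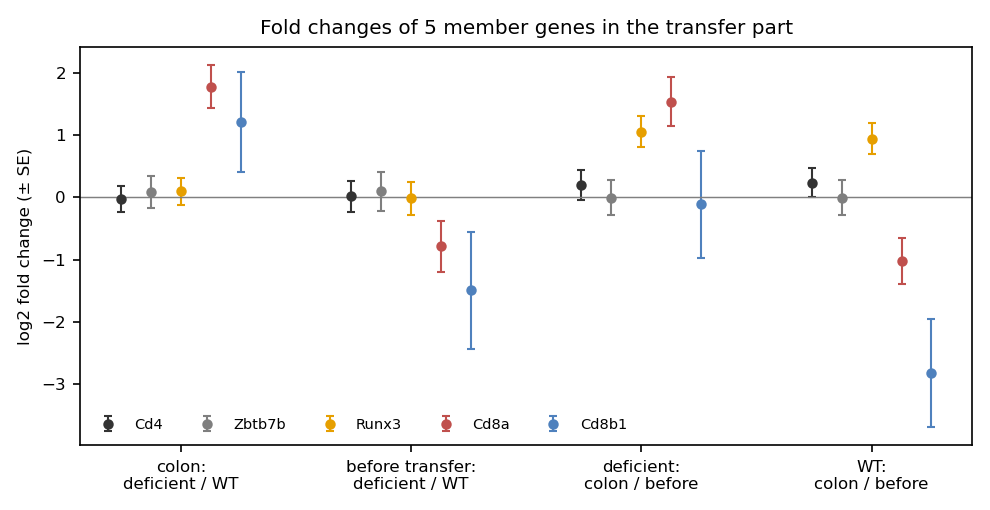
Log2 fold changes (± SE) of 5 member genes from the edgeR fit in the 4 comparisons of the transfer part; "deficient" is Il6ra-/- and each label gives the numerator first. Cd8a stands at 1.78 between the colon genotypes and -0.79 before transfer, and Cd4 and Zbtb7b stay near 0 in all 4.

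In the wild-type colon, Runx3 and Tcrg-C4 transcripts were higher than in precursors and CD8 transcripts were lower. These wild-type colon libraries are also those of the genotype comparison that chose the genes, so the values are a description. Runx3 had 260.0, 271 and 270.5 CPM in wild-type colon libraries and 121 and 158 CPM in wild-type precursors (log2 fold change 0.94 ± 0.25, SE). Tcrg-C4 had 705 counts in the 3 colon libraries and 1 count in the 2 precursor libraries, a ratio of 572 after scaling. The size of this ratio rests on 1 precursor count, and the gene passed the filter only through the colon libraries.

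Cd8b1 had 1.41, 4.05 and 5.74 CPM in wild-type colon libraries and 9.39 and 43.5 CPM in wild-type precursors (log2 fold change -2.82 ± 0.87, SE; -1.33 without precursor library 1). Cd8a had 12.3, 13.9 and 16.4 CPM in wild-type colon libraries and 21 and 37 CPM in wild-type precursors (-1.03 ± 0.37, SE). The log2 fold change was 0.24 ± 0.23 for Cd4 and -0.01 ± 0.29 for Zbtb7b (SE). The groups did not overlap for 5 of 6 members, all but Zbtb7b, beside 55% of all genes, and 32.9% of all genes passed the test in this comparison.

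In Il6ra-/- cells the same step is given as a description. Cd8a had 26.2, 53.2 and 66.7 CPM in the colon and 14.3 and 19.3 CPM in precursors (log2 fold change 1.54 ± 0.39, SE), where the wild-type values ran the other way. Runx3 had 291, 283 and 282 CPM in the colon and 98.1 and 178 CPM in precursors (1.05 ± 0.25, SE). Tcrg-C4 had 2571 counts in the 3 colon libraries and 6 in the 2 precursor libraries, a ratio of 478 after scaling that rests on few precursor counts. Cd8b1 overlapped, with 1.56, 15.4 and 9.17 CPM in the colon and 6.09 and 12.6 CPM in precursors, and so did Cd4 and Zbtb7b. The groups did not overlap for 3 of 6 members, beside 59.1% of all genes, and 27% of all genes passed the test in this comparison.

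The balance of the lineage factors is shown by Runx3 over Zbtb7b, both per kb of exon. The ratio was 1.25, 1.66 and 1.85 in Il6ra-/- colon libraries and 1.10, 1.68 and 2.15 in wild-type colon libraries. It was 0.607 and 0.842 in Il6ra-/- precursors and 0.755 and 0.835 in wild-type precursors, so that every colon library lay above every precursor library, and the genotypes overlapped at both stages. The Cd8b1 to Cd8a ratio, on the same scale, was between 0.146 and 0.71 in Il6ra-/- colon libraries and between 0.28 and 0.859 in wild-type colon libraries. It lay between 1.04 and 1.61 in Il6ra-/- precursors and between 1.10 and 2.89 in wild-type precursors. Colon and precursor values did not overlap. These ratios share both genes' counting error and were not tested.

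**Figure D4:**
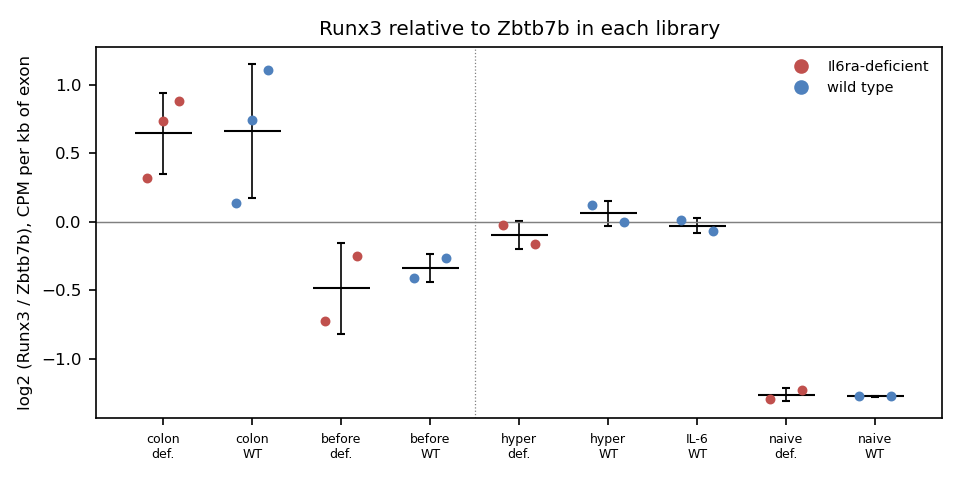
Log2 of the Runx3 to Zbtb7b ratio (CPM per kb of exon) in each library (points), with group means (bars) and SD (whiskers); "def." is Il6ra-deficient and the dotted line separates the parts. Within the transfer part, colon libraries lie above 0 and precursors below 0 in both genotypes. Within the culture part, cultures lie near 0 and naive cells lower, at ratios between 0.408 and 0.428.

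Other genes of these lineages changed widely from precursors to colon. In wild-type cells 16 of 18 tested CD8 and intraepithelial genes rose and 0 fell in edgeR (median log2 fold change 4.32, against -0.02 over all genes); by size these were led by Gzmk and Gzma, which encode granzymes, Itga1, and Cd160, a receptor of intraepithelial lymphocytes. Cd160 had 98.5 ± 27.0 CPM in the wild-type colon (n = 3) and 2.16 ± 0.463 CPM in wild-type precursors (SD, n = 2; edgeR adjusted p = 9.69e-05). Of 17 gamma-delta genes tested 9 rose and 3 fell (median 2.44): Tcrg-V4, Tcrg-C2 and Tcrg-C1 rose with log2 fold changes of 6.65, 5.85 and 4.05, 5830411N06Rik with 2.55, and Sox4 fell, as did Id3 and Etv5, at -2.96 and -2.45. Tcrg-V3 had no counts in wild-type precursors, and Gzmk averaged 0.0248 CPM there. Such genes passed the filter on low counts only through the colon libraries, which favours a rise, so nothing is read from their calls. Of the 20 lineage regulators 5 rose and 7 fell (median 0.03). Bcl11b, a factor of T cell commitment, and Ikzf1, Ikzf3 and Gata3 rose by log2 fold changes between 1.05 and 1.33; Myb, Socs1, Tcf7 and Satb1 fell, at -3.11, -1.54, -1.14 and -1.05. In the alpha-beta receptor list 1 gene, Lat, rose and 2, Cd3d and Cd247, fell (median -0.23 over 10 tested).

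In Il6ra-/- cells, 18 of 18 CD8 and intraepithelial genes rose and 0 fell in edgeR (median 5.20 on the log2 scale, against 0.00 over all genes), with Gzmk, Itga1, Gzma and Ccl5 first by size. Ccl5, a chemokine, had 506 ± 140.4 CPM in the Il6ra-/- colon (n = 3) and 3.86 ± 2.82 CPM in Il6ra-/- precursors (SD, n = 2; edgeR adjusted p = 0.000305). Of 17 gamma-delta genes 9 rose and 2 fell (median 3.29). Among those with a mean log2 CPM of 2 or more, Tcrg-C2, Tcrg-V4, Tcrg-C1 and 5830411N06Rik rose most, and Sox4 and Etv5 fell. Tcrg-V1, Tcrg-V5, Tcrg-V7 and Gzmk had no counts in Il6ra-/- precursors. They passed the filter on low counts only through the colon libraries, which favours a rise, so nothing is read from their calls. Of the 20 regulators 3 rose (Gata3, Bcl11b and Ikzf1) and 4 fell (Myb, Satb1, Tcf7 and Patz1), with a median of 0.09, and in the alpha-beta list Lat rose and none fell (median 0.18). Markers of other cells moved with the colon stage. Of 8 epithelial markers 7 rose in each genotype, and of 9 myeloid markers 7 rose in Il6ra-/- and 9 in wild-type cells. The epithelial sums in precursors were between 7.34 and 14.9 CPM in Il6ra-/- and between 10.9 and 19.8 CPM in wild-type cells, and the myeloid sums were between 8.71 and 54.0 CPM in Il6ra-/- and between 15.3 and 32 CPM in wild-type cells. The NK sums, given above for the colon, were between 2.69 and 2.91 CPM in Il6ra-/- and between 5.80 and 7.37 CPM in wild-type precursors. Of 4 NK markers tested, 2 rose in Il6ra-/- cells, and 2 rose and 1 fell in wild-type cells. Those that rose were Klrb1c and Eomes, of which Eomes is also on the CD8 list. The NKT and MAIT sums were between 71.8 and 72.5 CPM in Il6ra-/- and between 64.3 and 76.5 CPM in wild-type precursors, and of 4 such markers 2 rose in Il6ra-/- and 3 in wild-type cells, Slamf1 and Klrb1c in both. The part of these transcripts in the list changes was not tested.

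In culture, the CD4 programme genes were lower in Th17 cells than in the naive cells they came from, in both genotypes. Cd4 had 439 and 431 CPM in deficient hyper-IL-6 cultures and 955 and 990.0 CPM in deficient naive cells (log2 fold change -1.16 ± 0.11, SE, edgeR adjusted p = 2.36e-06). It had 389.9 and 403 CPM in wild-type hyper-IL-6 cultures and 810.2 and 1016 CPM in wild-type naive cells (-1.20 ± 0.11, SE, adjusted p = 1.88e-06). Zbtb7b had 84.1 and 87.3 CPM in deficient cultures and 328 and 330.3 CPM in deficient naive cells (-1.94 ± 0.09, SE, edgeR adjusted p = 9.82e-09). It had 82.6 and 89.1 CPM in wild-type cultures and 333 and 315 CPM in wild-type naive cells (-1.91 ± 0.09, SE, adjusted p = 1.14e-08).

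Runx3 fell less than Zbtb7b on the log2 scale, a difference that was not tested. It had 74.2 and 69.7 CPM in deficient cultures and 119.6 and 126 CPM in deficient naive cells (-0.77 ± 0.08, SE, edgeR adjusted p = 9.32e-06). It had 80.7 and 79.6 CPM in wild-type cultures and 123 and 117 CPM in wild-type naive cells (-0.58 ± 0.08, SE, adjusted p = 9.27e-05). The Runx3 to Zbtb7b ratio per kb was 0.892 and 0.986 in deficient cultures and 0.408 and 0.428 in deficient naive cells. Wild-type cultures had ratios of 0.999 and 1.09, and both wild-type naive libraries had 0.414. Cd8b1 had 2.54 and 3.05 CPM in deficient cultures and 12.1 CPM in both deficient naive libraries (-2.11 ± 0.22, SE, edgeR adjusted p = 6.58e-06). It had 2.67 and 3.00 CPM in wild-type cultures and 17.6 and 14.4 CPM in wild-type naive cells (-2.49 ± 0.22, SE, adjusted p = 1.81e-06).

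Cd8a was near the limit of counting throughout the culture part, with 16 and 28 counts in deficient and 12 and 21 counts in wild-type hyper-IL-6 cultures and 15 and 1 counts in wild-type IL-6 cultures. Naive cells had 5 and 15 counts in deficient and 0 and 9 counts in wild-type libraries. It did not pass against naive cells in either genotype (edgeR adjusted p = 0.679 in deficient and 0.417 in wild-type cells). Without the wild-type naive library that held 9 counts it passed in edgeR (adjusted p = 0.0418, within a range of 0.0418 to 0.911). Tcrg-C4 had 0 and 5 counts in deficient hyper-IL-6 cultures and 7 and 9 counts in deficient naive cells (edgeR adjusted p = 0.0662; 0.0148 without the culture library that held 5 counts, within a range of 0.0148 to 0.271). It had no counts in wild-type hyper-IL-6 cultures and 20 and 26 counts in wild-type naive cells (edgeR adjusted p = 0.000685). Set against a floor of 3 counts over the group this was 27.8-fold lower, leaving out the error of the naive counts. The upper end of the 95% exact interval of the ratio was 0.046. Tcrg-C4 passed the filter on low counts only through the naive libraries. That entry favours a fall in culture, so nothing is read from its p-values. Thus 4 of 6 members, Cd4, Zbtb7b, Runx3 and Cd8b1, passed as lower in both genotypes. In wild-type cultures the test also called Tcrg-C4, which is left out of this count for that reason. Over all genes 72% in deficient and 70.3% in wild-type cultures passed in either direction. Of these calls 52.2% in deficient and 52.4% in wild-type cultures were higher.

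The lists followed the members in part. Of the 20 lineage regulators 3 rose and 13 fell in each genotype (median log2 fold changes -0.78 in deficient and -0.56 in wild-type cells, against 0.04 over all genes in both). Cbfb, the partner of Runx proteins, Hdac3 and Zbtb7a rose, with Cbfb at 269 ± 0.686 CPM in deficient cultures and 171 ± 0.6 CPM in deficient naive cells (SD, n = 2 each; edgeR adjusted p = 3.65e-05). Gata3, Tcf7 and Lef1 fell, at log2 fold changes of -3.76, -3.72 and -3.86 in deficient cells and -4.01, -3.82 and -3.79 in wild-type cells, with Tox in deficient cells (-3.01) and Satb1 in wild-type cells (-2.99) next. Of 10 alpha-beta receptor genes 1 rose and 8 fell in deficient cells (median -0.81), and 1 rose and 9 fell in wild-type cells (median -1.13). Zap70, the kinase of the receptor, was the gene that rose, and Cd3g fell, at -1.89 in deficient and -2.29 in wild-type cells. Of 12 gamma-delta genes 1, Etv5, rose in each genotype and 5 fell in deficient and 6 in wild-type cells, Sox4 in both and Id3 in wild-type cells among them. Of 16 CD8 and intraepithelial genes 5 rose and 5 fell in each genotype: Xcl1, Tbx21 and Crtam rose, and Cd7, Prf1 and Klrd1 fell.

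Markers of other cells moved in the same comparisons. The 6 B cell markers summed to between 3.91 and 4.60 CPM in deficient cultures and between 409 and 438 CPM in deficient naive cells, mostly Ighm, and to between 4.53 and 6.81 CPM in wild-type cultures and between 441 and 461 CPM in wild-type naive cells. The dendritic cell markers summed to between 153 and 174 CPM in deficient cultures and between 21.1 and 24.9 CPM in deficient naive cells, and to between 184 and 234 CPM in wild-type cultures and between 23.6 and 23.7 CPM in wild-type naive cells. Most of the culture sum was Irf8, and Clec9a had no counts in either culture group. Of 4 NKT and MAIT markers, Slamf1 rose and 3 fell in each genotype. Of 4 epithelial markers tested, 2 rose and 2 fell in each genotype. Of 7 NK markers 1 rose and 3 fell in deficient cells, and 0 rose and 3 fell in wild-type cells, and of 8 myeloid markers 0 rose and 5 fell in deficient cells, and 1 rose and 5 fell in wild-type cells. Their part in the list and member changes was not tested.

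Among cultures, neither hyper-IL-6 (63 ng/ml) in place of IL-6 (20 ng/ml) nor the receptor genotype moved a member past the threshold. The form of IL-6 and its concentration differed together and cannot be told apart. Between deficient and wild-type hyper-IL-6 cultures, Runx3 differed by a log2 fold change of -0.16 ± 0.08 and Cd4 by 0.13 ± 0.11 (SE, edgeR adjusted p = 1 for both). Between wild-type cultures with hyper-IL-6 and with IL-6, Cd4 had 389.9 and 403 against 433 and 438 CPM, and Runx3 80.7 and 79.6 against 76 and 76.7 CPM. Zbtb7b had 82.6 and 89.1 against 84.2 and 89.7 CPM, and Cd8b1 2.67 and 3.00 against 2.73 and 1.96 CPM. The number of genes passing in edgeR was 0 of 14926 (0%) in each of these comparisons, with 351 and 226 genes at an unadjusted p under 0.05 and 3 and 1 in DESeq2; of 6 members 0 passed, 0 at an unadjusted p under 0.05 and 0 in DESeq2. Of 58 tested genes of the T cell lists 0 passed in edgeR in either (6 and 3 at an unadjusted p under 0.05, 0 in DESeq2).

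Naive cells of the genotypes differed in no member by the test. Cd4 (955 and 990.0 against 810.2 and 1016 CPM), Zbtb7b (328 and 330.3 against 333 and 315 CPM) and Runx3 (119.6 and 126 against 123 and 117 CPM) overlapped between deficient and wild-type naive cells. Cd8b1 was at 12.1 CPM in both deficient libraries and at 17.6 and 14.4 CPM in wild-type ones (log2 fold change -0.40 ± 0.21, SE, edgeR adjusted p = 0.523). Tcrg-C4 had 16 counts in deficient and 46 in wild-type naive cells (ratio 0.341, 95% exact interval 0.18 to 0.614, counting error only; adjusted p = 0.544). In this comparison 0.0067% of genes passed, and of 6 members 0 passed, 0 at an unadjusted p under 0.05 and 0 in DESeq2. The difference between genotypes in the step from naive to hyper-IL-6 culture was tested as an interaction. In it 0% of genes passed in edgeR (1267 at an unadjusted p under 0.05, 45 in DESeq2). Of 6 members 0 passed, 1 at an unadjusted p under 0.05 (Tcrg-C4, at few counts) and 0 in DESeq2.

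Genes whose pattern was most like a member's were taken over 10 transfer and 10 culture libraries from 8936 genes, by the smaller of the 2 Pearson correlations of log2 CPM, as a description. For Cd4 these were N4bp2l1, Stat4 and Gpbp1l1 (0.952, 0.945 and 0.943), for Zbtb7b Casp9, Klhl9 and AI467606 (0.919, 0.911 and 0.903), for Runx3 Inpp1, Gsap and Trim30a (0.984 each), and for Cd8b1 Ssbp2, Cd47 and Gadd45a (0.884, 0.86 and 0.859). For Tcrg-C4 they were Cr1l, Mfsd8 and Cap1 (0.966, 0.957 and 0.954), and for Cd8a no gene came above 0.578. Culture counts were few for both Cd8a and Tcrg-C4, and those of Tcrg-C4 were few in precursors too. Libraries of a group share their condition, so these values mostly reflect differences between groups.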

How the data were processed

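For each library the authors deposited raw counts, unnormalised numbers of reads assigned to each gene. The submitters' processing notes name HTSeq 0.7.2, STAR 2.5.3, R 3.4.3, SAMtools 0.1.18 and DESeq2 1.18.1, with build GRCm38 (mm10). The names of the deposited files carry the word reverse, and the labels name a stranded kit for the transfer part only. The strand setting of the counting and the annotation release are not given in the sources used here, so reads of the antisense genes Gm15417 (Zbtb7b) and Gm16224 (Runx3) cannot be set apart, and those of near-identical gamma chain genes are uncertain. Reads in no gene, between 18.1% and 31.9% of each library, were left out of library sizes. Symbols and positions came from GENCODE M21 for GRCm38 and matched 37693 of 39179 IDs; the ID of Trdc had no match and it is not analysed here.

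Groups came from the titles and source names. The transfer and culture parts were fitted apart with edgeR 4.0.16 in R 4.3.3 (quasi-likelihood F test, TMM, filter by expression per group, group as the only factor), on 14225 and 14926 genes, and genes passed at a Benjamini-Hochberg adjusted p under 0.05 over all of them. All 6 members passed the filter on low counts in both parts. On simulated counts with the wild-type stage design, 4-fold changes were recovered more often than 2-fold ones. Any working test gives this order, so no conclusion about error rates is drawn from it. Tests of members in the wild-type colon against precursors, which the design had included, are not given, because its colon libraries belong to the contrast that chose them. The members and lists were chosen with earlier results of these data known. The text names all members and, from each other list and comparison, up to 4 genes per direction with the largest change among those past the threshold whose mean log2 CPM was 2 or more; segments of the gamma chain locus, Trac, Trdv1, Sox13, Cd163l1, 5830411N06Rik in the colon genotype comparison, Il6ra, Cd3e and single marker genes outside that rule were named after their values were seen. Libraries of a group always differed by more than sampling noise (mean chi-square per gene at least 6.38).

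In the transfer part, source names place replicate 0 in the first experiment and replicates 1 and 2 in the second. Deviations from the group mean correlated between libraries of the same number at 0.58, 0.237 and 0.183 between colon genotypes and 0.43 between precursors, and the numbers were taken to pair libraries within a stage. They were not taken to pair stages (-0.143 to 0.0793). Intervals for few counts are exact binomial ones at 95% and cover counting error only. Alternatives were RLE scaling, no filter, DESeq2 1.42.0, the replicate block, an experiment term, the compared groups only and each library left out.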

Additional observations from a re-analysis of the deposited data

Results flagged for a closer look

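Cd8a moved in opposite directions in 2 pairs of comparisons, with no overlap of the groups in any of them. Between genotypes its log2 fold change was 1.78 in the colon, where all 3 Il6ra-/- libraries lay above all 3 wild-type ones, and -0.79 before transfer, where both Il6ra-/- libraries lay below both wild-type ones. From precursors to colon it was 1.54 in Il6ra-/- cells and -1.03 in wild-type cells. Over all genes, groups did not overlap for 15.8% between colon genotypes, and for 59.1% in Il6ra-/- and 55% in wild-type cells from precursors to colon. That share was not counted before transfer, where Cd8a did not pass (edgeR adjusted p = 0.982). Both pairs rest on the same 10 libraries and restate the same difference. The colon values helped to choose the gene, and the difference between the effects was not tested.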

How the results depend on the processing

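Of 42 member results with a test, 12 changed sign under some alternative, and 0 of these had passed in edgeR. By single settings, the log2 fold change was 0.00025 for Zbtb7b between hyper-IL-6 genotypes with DESeq2 and 0.014 for Runx3 before transfer with no filter. With the replicate block it was -0.0054 for Cd4 before transfer (-0.0046 with an experiment term); the block changed no member call. With single libraries left out, values ranged before transfer from -0.36 to 0.33 for Cd4, -0.11 to 0.29 for Zbtb7b and -0.50 to 0.37 for Runx3, between hyper-IL-6 genotypes from -0.16 to 0.11 for Cd8b1 and -0.057 to 0.052 for Zbtb7b, between hyper-IL-6 and IL-6 from -0.073 to 0.036 for Zbtb7b, between naive genotypes from -0.058 to 0.26 for Cd4, -0.016 to 0.069 for Zbtb7b and -0.0034 to 0.083 for Runx3, and for the interaction from -0.13 to 0.19 for Cd4, -6.32 to 0.35 for Cd8a and -0.081 to 0.028 for Zbtb7b. Genes of the other T cell lists past the threshold between colon genotypes numbered 2, or 4 with no filter, 4 with DESeq2, 5 with the compared groups only and 0 without any 1 colon library. All-gene counts moved by over 1.5 times with DESeq2 between colon genotypes (133 against 22) and before transfer (24 against 1), and between naive genotypes (93 against 1). From 0 in edgeR they moved to 45 for the interaction, 3 between hyper-IL-6 genotypes and 1 between hyper-IL-6 and IL-6. The cause was not tested. The counts of members past the threshold kept within 1.5 times under every alternative run, between 5 and 6 in wild-type cultures and 4 and 5 in deficient cultures, and at 0 in the other tested comparisons. The counts in wild-type cultures include Tcrg-C4, from whose p-values nothing is read. The settings without the only counted library gave no value for Tcrg-C4, as both groups then had no counts. In the culture part, same-numbered libraries correlated between -0.0725 and 0.156, so numbers are not taken to pair them. Depth limits Cd8a in the culture part and Tcrg-C4 outside the colon.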
